A study of Homo sapiens with 12 samples.

Results

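The response to chidamide of cultures labelled as the T-cell acute lymphoblastic leukaemia (T-ALL) line Molt-4 was measured by comparing 3 treated with 3 untreated RNA-seq libraries over every gene with an FPKM of at least 1 in 3 or more of these 6 libraries. This rule kept 13060 of the 25146 genes in the table. FPKM scales the fragments of a gene by transcript length and by the mapped fragments of the library. Per the labels both groups were Molt-4, a name that the markers below bear on, in RPMI medium with 10% fetal bovine serum. The treated group received chidamide at 2 µM and the untreated group none. The protocol states a treatment of 48 h. Replicate 1 is labelled 48 h, replicate 2 49 h and replicate 3 50 h, so an effect of time could not be told from one of the replicate. The same design in a second T-ALL line, Jurkat, with 3 untreated and 3 treated libraries, served for comparison. Library names give only the letters J and M. These were taken to mean Jurkat and Molt-4 because the growth protocol names no other line. Whether the 3 libraries of a group were grown as separate cultures is not stated, so p-values rest on library-to-library spread that may be technical.

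The drug chidamide, also called tucidinostat, belongs to the benzamide inhibitors of class I histone deacetylases and also acts on HDAC10. Histone deacetylases remove acetyl groups from lysines of histones and other proteins, and inhibitors of this class typically raise histone acetylation, alter the transcription of very many genes and induce the cell-cycle inhibitor gene CDKN1A. T-ALL arises from immature thymocytes, which rearrange their antigen-receptor genes with the RAG recombinase and depend on signals from the receptor NOTCH1. NOTCH1 is cleaved after it binds a ligand, and its freed intracellular part acts in the nucleus as a transcription activator, with MYC, HES1, DTX1 and PTCRA among its known targets in T-ALL.

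The label of the cultures was checked first against lineage markers, and the libraries labelled Molt-4 held markers of more than 1 lineage. Of 23 T-lineage markers 22 were tested, and only CD8B stayed under an FPKM of 1 in all 6 libraries. The T-cell receptor component gene CD3D was at 382, 426 and 463 FPKM in the untreated and 346, 321 and 327 FPKM in the treated libraries. The same libraries held high levels of red-cell genes, which are not defining genes of T cells. HBG2, a fetal globin gene, was at 5709, 6003 and 6289 FPKM in the untreated and 13887, 14018 and 14319 FPKM in the treated libraries. GATA1, the master regulator of red-cell development, was at 89.1, 86 and 85.5 FPKM in the untreated and 151, 159 and 163 FPKM in the treated libraries. In Jurkat, HBG2 was listed at 0 in the 3 untreated libraries and at 0.03, 0.18 and 0.16 FPKM in the treated ones, and GATA1 was at 0.04, 0.08 and 0.13 FPKM in its untreated libraries.

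The summed level of 16 erythroid markers was 10677 to 11400.1 FPKM in the untreated and 25839 to 26530.3 FPKM in the treated libraries labelled Molt-4, against 1.31 to 2.64 and 8.14 to 81.5 FPKM in Jurkat. Of these markers 14 rose and 2 fell. The sum of the T-lineage markers went the other way, from 2112 to 2148 FPKM untreated down to 1506 to 1516 FPKM treated, with 7 rises and 14 falls. All 6 libraries carried both sets, so no result could be given without such libraries. Which line the cultures were was not checked by genotype, and bulk libraries cannot tell whether the same cells carried both sets. For every gene below, fewer cells of a type and less RNA per cell cannot be told apart. Both marker sums moved with treatment, and their part in the results was not tested.

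**Figure D1:**
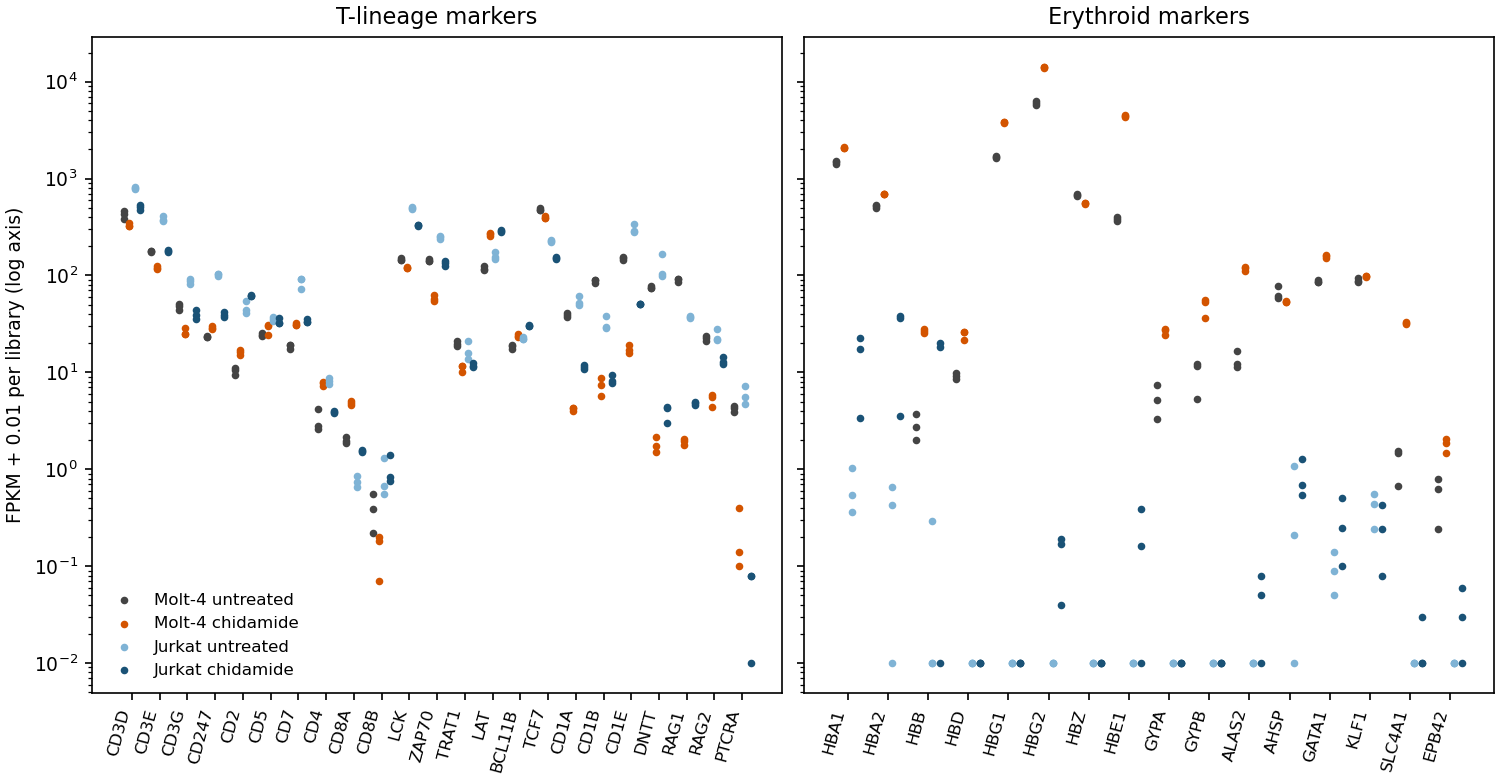
FPKM + 0.01 (log axis) of 23 T-lineage markers (left) and 16 erythroid markers (right) in each of the 3 libraries per group (1 point per library, groups by colour). The libraries labelled Molt-4 held both marker sets before and after chidamide, while untreated Jurkat held the T-lineage set with a summed erythroid level of 1.31 to 2.64 FPKM.

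Markers of other lineages were mixed. The cytotoxic granule gene PRF1 was at 50.6, 47.4 and 44.9 FPKM in the untreated and 98.5, 101 and 96.5 FPKM in the treated libraries. The myeloid receptor gene CD33 was at 11.2, 10.4 and 9.4 FPKM untreated and 20.4, 21.3 and 20.9 FPKM treated, and the epithelial keratin gene KRT18 at 42.2, 40.9 and 40.6 FPKM untreated and 67.3, 71.2 and 69.7 FPKM treated. All 3 were therefore present before treatment. Of 11 myeloid markers 6 stayed under an FPKM of 1, among them CD14, MPO and S100A8. GNLY and GZMB, genes of cytotoxic cells, and MS4A1 and PAX5, genes of mature B cells, also stayed under 1. The total FPKM of a library was 753760 to 869059, and the depth in reads is unknown because FPKM keeps no counts. Untreated libraries had 11965 to 11989 genes at an FPKM of at least 1 and treated libraries 13222 to 13228. The 7SL RNA genes took 10.1% of the total FPKM in untreated replicate 3, against 2.25% to 5.35% in the others. On log2(FPKM + 1) values, Pearson's r across genes was 0.9921 to 0.9931 within a group and 0.9277 to 0.9289 between treated and untreated libraries.

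Chidamide was accompanied by a change in most of the expressed genes, and the large changes were nearly all rises. A gene is called when limma gave an adjusted p under 0.05 over all 13060 genes. By this rule 4695 genes rose (35.9%) and 3584 fell (27.4%). With a change of at least 2-fold on the log2(FPKM + 1) scale as well, 1687 genes rose (12.9%) and 183 fell (1.4%). The median log2 change over all genes was 0.058, and the 5th and 95th percentiles were -0.68 and 1.69. Log2 differences are treated minus untreated on the log2(FPKM + 1) scale, followed by their standard error; for low genes this scale makes changes look smaller than they are. Levels are means ± SD over 3 libraries. The balance of rises and falls depended on the scaling: under quantile normalization 3551 genes rose and 4958 fell, which is 41.7% of the calls as rises against 56.7% with the FPKM as deposited. Quantile normalization shifted the median of all genes to -0.096.

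The direction went with the untreated level. Of the 1141 genes with an untreated mean under 1 FPKM, 90.4% rose and 0 fell by limma (0 also at an unadjusted p under 0.05). These genes passed the filter through their treated level, so they had to be higher there. Between 1 and 10 FPKM, 44.5% rose and 10% fell. Between 10 and 100 FPKM, 24.3% rose and 38.2% fell, and above 100 FPKM the shares were 17.5% and 56.7%. There were 136 genes under 0.1 FPKM in all 3 untreated libraries and at 1 or more in all 3 treated ones, and 0 genes with the opposite pattern. Of the 136 genes, 14 reached 5 FPKM in each treated library, among them the surface glycoprotein gene THY1, the nerve growth factor receptor gene NGFR, the MHC class II gene HLA-DPB1 and the lymphocyte receptor gene SLAMF7.

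**Figure D2:**
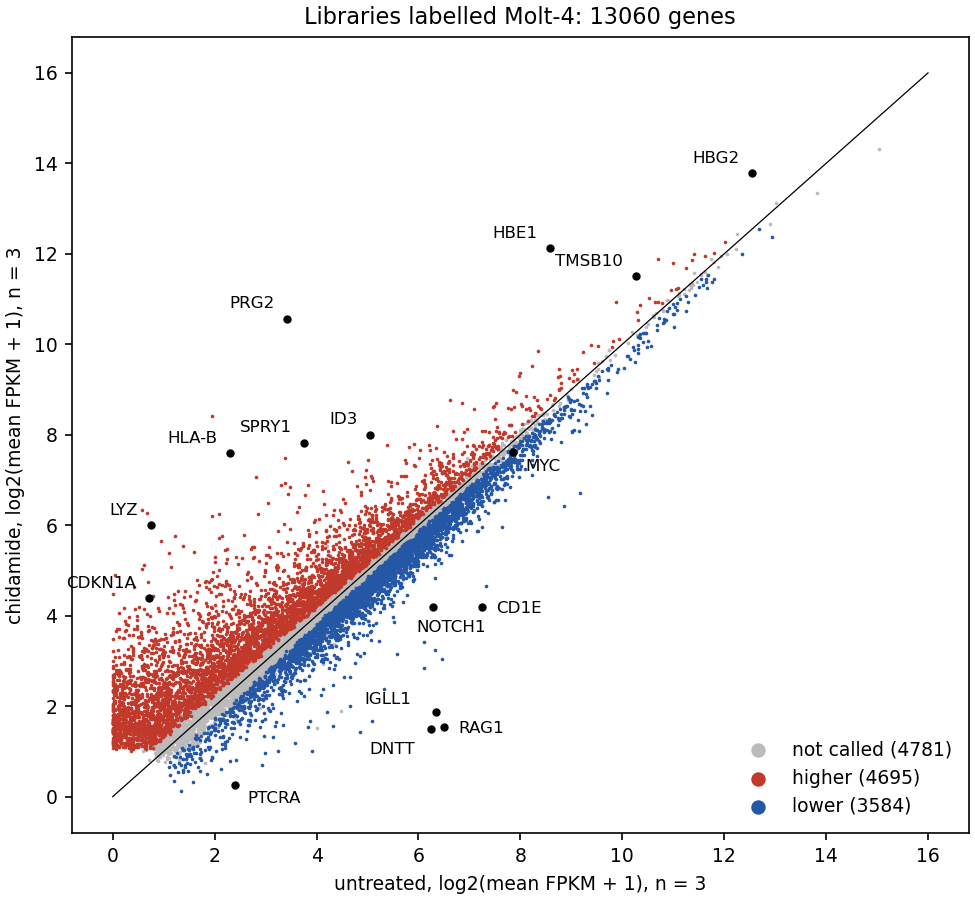
Each point is 1 of 13060 genes, with log2(mean FPKM + 1) of the 3 untreated libraries on the x axis and of the 3 chidamide libraries on the y axis; the line marks equal levels and colours mark calls. Points far above the line start at low untreated levels, and the genes far below it include RAG1, DNTT and IGLL1.

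On the log2(FPKM + 1) scale the largest rise was that of PRG2, which encodes eosinophil major basic protein. It was at 10.4, 9.43 and 9.43 FPKM in the untreated and 1477, 1541 and 1537 FPKM in the treated libraries, a 155-fold difference of the means (log2 difference 7.14 ± 0.049, adjusted p = 1.63e-10). With a pseudocount of 0.1 the log2 change was 7.27 for PRG2 and 7.78 for THY1, so the order depends on the pseudocount. The groups lie far apart for PRG2, and treated PRG2 was among the 5 largest rises in FPKM itself. LYZ, the lysozyme gene of myeloid cells, was at 0.39, 0.86 and 0.78 FPKM in the untreated and 63.9, 62.7 and 62.1 FPKM in the treated libraries (log2 difference 5.26 ± 0.12, adjusted p = 6.68e-08). The MHC class I gene HLA-B was at 2.29, 2.21 and 7.21 FPKM in the untreated and 166, 201 and 209 FPKM in the treated libraries (log2 difference 5.44 ± 0.33, adjusted p = 4.71e-06). The rule that picked PRG2, LYZ and HLA-B required no overlap between the groups. Over all genes tested, 38.4% had each treated library above each untreated one. Further large rises were the carboxypeptidase-like gene CPXM1 from 0.5 ± 0.131 to 79.8 ± 2.5 FPKM, the trypsinogen gene PRSS2 from 0.593 ± 0.326 to 76.7 ± 3.71 FPKM, the transcription factor gene TOX2 from 0.917 ± 0.422 to 49.1 ± 1.33 FPKM, the collagen gene COL1A1 from 0.54 ± 0.634 to 34 ± 3.41 FPKM and the neurogranin gene NRGN from 1.34 ± 0.412 to 53 ± 3.25 FPKM. THY1 was at 0.04, 0.02 and 0.03 FPKM in the untreated and 27, 25.2 and 34 FPKM in the treated libraries. The precursor locus of the microRNA miR-6843, MIR6843, rose from 2.86 ± 0.923 to 343 ± 18.4 FPKM, although such a short locus is poorly measured by FPKM. PRSS2 and HLA-B have close relatives in the genome, and the share of reads given to each copy is uncertain.

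The largest falls were led by genes of antigen-receptor rearrangement. RAG1, the recombinase subunit gene, was at 91.6, 91.6 and 84.6 FPKM in the untreated and 1.93, 2.04 and 1.76 FPKM in the treated libraries, 46.7-fold lower in the treated mean (log2 difference -4.96 ± 0.073, adjusted p = 1.19e-08). DNTT, the terminal transferase that adds bases at the joins, was at 74.9, 77.4 and 73.8 FPKM in the untreated and 1.74, 2.15 and 1.51 FPKM in the treated libraries (log2 difference -4.78 ± 0.094, adjusted p = 3.79e-08). The surrogate light chain genes IGLL1 and VPREB1 fell from 79.9 ± 1.81 to 2.65 ± 0.341 FPKM and from 28.1 ± 1.61 to 1.71 ± 0.0569 FPKM. The rule that picked these 4 genes required no overlap between treated and untreated libraries. Over all genes tested, 29.8% had each treated library below each untreated one. Also among the 10 largest falls were the CD1 lipid-antigen presentation genes CD1A, CD1B and CD1E, the microfibril gene MFAP4 from 78.8 ± 1.37 to 8.4 ± 0.255 FPKM and SH3TC1 from 33.2 ± 2.28 to 2.18 ± 0.32 FPKM. CXorf49 fell from 67.7 ± 8.83 to 6.21 ± 1.37 FPKM, but its near-identical copy CXorf49B went from 0, 0 and 0 to 6.18, 4.85 and 7.59 FPKM, the same treated values as CXorf49, so the share of each copy is uncertain. Among called genes the largest falls in mean FPKM were those of LOC100288910, RPS23, RPS2, RPL41 and RPL10.

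**Figure D3:**
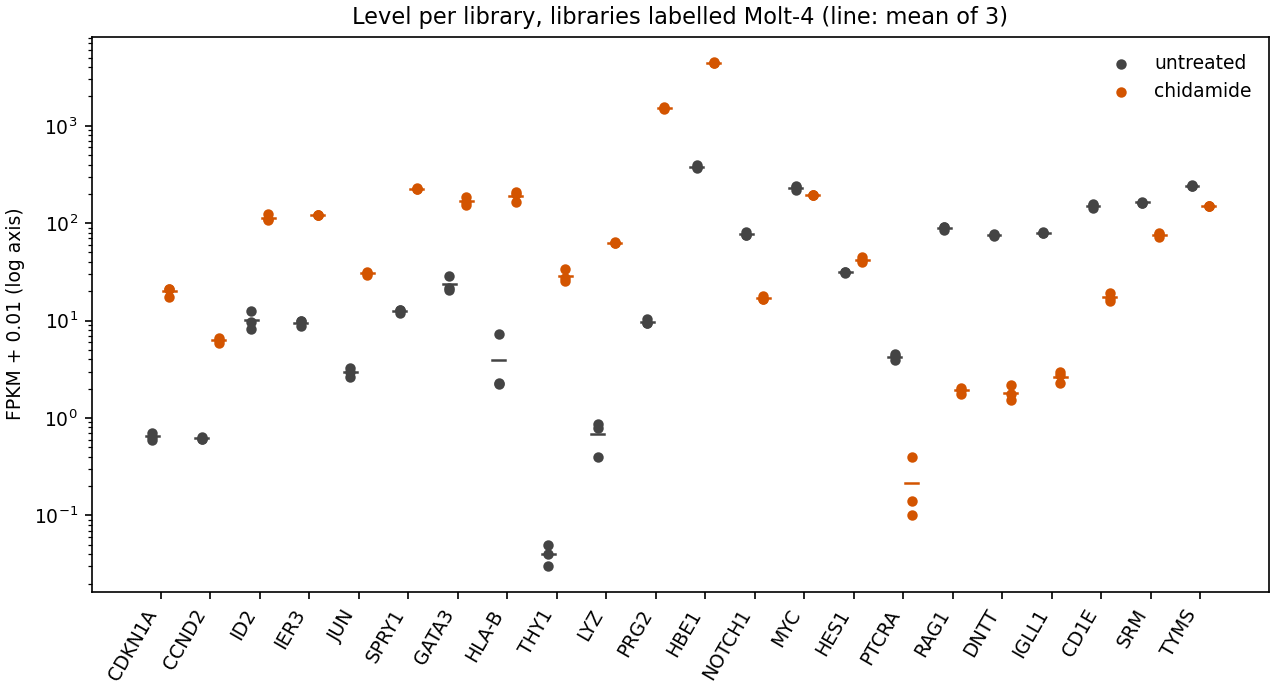
FPKM + 0.01 on a log axis for 22 genes in each of the 3 untreated and 3 chidamide libraries labelled Molt-4; short lines are means. Treated and untreated points do not overlap for any gene shown, and the gap is smallest for MYC and HES1. Of all genes tested, 38.4% lay fully above and 29.8% fully below in the treated libraries.

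CDKN1A, the p21 gene whose product inhibits cyclin-dependent kinases (CDKs), was at 0.59, 0.63 and 0.69 FPKM in the untreated and 17.4, 21 and 21.3 FPKM in the treated libraries, a 31.3-fold difference (log2 difference 3.67 ± 0.11, adjusted p = 1.65e-07). The treated libraries lay far above the untreated ones. The ID genes, whose products block the E proteins that drive lymphoid genes, rose as well. ID2 was at 8.15, 12.5 and 9.65 FPKM in the untreated and 108, 109.7 and 123 FPKM in the treated libraries, and ID3 at 33.4, 30.9 and 32.1 FPKM in the untreated and 243, 257 and 264 FPKM in the treated libraries. ID1 rose from 33.5 ± 2.15 to 124 ± 2.38 FPKM (log2 difference 1.86 ± 0.055, adjusted p = 1.69e-07). The E protein gene TCF3 fell from 217 ± 9.58 to 168 ± 9.76 FPKM (log2 difference -0.36 ± 0.054, adjusted p = 0.000558). The 250 bases upstream of the RefSeq start of CDKN1A, ID1, ID3 and RAG1 are shown because these genes carried large rises and the largest fall. The build is GRCh38.p14, while the processing notes name hg19. Capitals mark the GC box, GGGCGG or its reverse complement CCGCCC, the core motif of SP-family factors, searched on both strands with overlaps kept. The windows are CDKN1A at chr6:36678464-36678713 (plus strand), ID1 at chr20:31605039-31605288 (plus strand), ID3 at chr1:23559502-23559751 (minus strand) and RAG1 at chr11:36510103-36510352 (plus strand).
CDKN1A: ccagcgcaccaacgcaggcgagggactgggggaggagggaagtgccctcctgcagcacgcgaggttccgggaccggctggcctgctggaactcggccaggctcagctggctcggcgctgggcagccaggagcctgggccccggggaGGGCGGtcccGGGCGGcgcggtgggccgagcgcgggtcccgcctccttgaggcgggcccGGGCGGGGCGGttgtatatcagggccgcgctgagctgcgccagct
ID1: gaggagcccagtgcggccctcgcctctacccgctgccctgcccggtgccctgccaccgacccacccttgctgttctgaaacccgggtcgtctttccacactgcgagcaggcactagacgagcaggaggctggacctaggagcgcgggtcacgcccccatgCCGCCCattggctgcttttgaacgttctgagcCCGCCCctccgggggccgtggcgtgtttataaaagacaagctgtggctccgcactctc
ID3: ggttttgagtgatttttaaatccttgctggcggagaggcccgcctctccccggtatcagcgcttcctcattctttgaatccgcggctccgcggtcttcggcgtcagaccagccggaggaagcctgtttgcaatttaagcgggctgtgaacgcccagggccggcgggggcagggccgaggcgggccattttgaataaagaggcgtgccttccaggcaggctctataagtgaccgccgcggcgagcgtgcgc
RAG1: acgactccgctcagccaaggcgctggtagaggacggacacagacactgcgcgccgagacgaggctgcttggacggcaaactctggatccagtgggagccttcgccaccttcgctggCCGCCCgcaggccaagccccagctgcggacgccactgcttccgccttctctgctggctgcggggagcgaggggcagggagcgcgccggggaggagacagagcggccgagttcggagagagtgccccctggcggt
The CDKN1A window held 4 GC boxes, ID1 2, RAG1 1 and ID3 0, and 42.6% of 35116 RefSeq promoter windows of this length hold at least 1. A match is a description of the letters only: the box was present upstream of a gene that fell and absent from the window of a gene that rose.

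Most DNA replication genes and many cell-cycle genes fell, while CDK inhibitor genes mostly rose. Among CDK inhibitor genes, 3 rose and 1 fell out of 5 tested and 7 listed. CDKN1C rose from 1.44 ± 0.215 to 5.53 ± 0.745 FPKM and CDKN2D from 23.8 ± 1.75 to 39 ± 2.19 FPKM, while CDKN2C fell from 55.9 ± 1.04 to 42.7 ± 1.49 FPKM. Among G1 cyclin, CDK, RB and E2F genes, 2 rose and 11 fell out of 21 tested, with a median log2 change of -0.29. The exception with the largest rise was the cyclin gene CCND2, at 0.63, 0.6 and 0.6 FPKM in the untreated and 6.34, 5.91 and 6.59 FPKM in the treated libraries. The E2F partner gene TFDP2 fell from 143 ± 20.2 to 72.9 ± 8.37 FPKM and the repressor gene E2F7 from 16.3 ± 0.241 to 8.52 ± 0.892 FPKM.

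Genes of DNA replication fell in the majority: 3 rose and 34 fell out of 49 tested (median -0.39), against the 27.4% of all genes that fell. That share was 38.2% for genes at 10 to 100 FPKM untreated and 56.7% above 100 FPKM. TYMS, which makes thymidylate for DNA synthesis, was at 244, 243 and 243 FPKM in the untreated and 149.9, 149 and 149.8 FPKM in the treated libraries (log2 difference -0.70 ± 0.032, adjusted p = 1.22e-06). PCNA, the sliding clamp of DNA polymerases, fell from 401 ± 4.76 to 265 ± 1.37 FPKM. POLD2, a DNA polymerase delta subunit, fell from 246 ± 6.81 to 149.9 ± 2 FPKM, and ORC6 of the origin recognition complex from 62.3 ± 6.11 to 39.9 ± 2.91 FPKM. Among homologous recombination and Fanconi genes, 1 rose and 19 fell out of 32 tested and 33 listed (median -0.28). NBN, which senses DNA breaks, fell from 28.8 ± 2.51 to 15.6 ± 0.711 FPKM, and the strand-exchange gene RAD54L from 45.7 ± 1.38 to 29 ± 2.04 FPKM. Among mitotic genes, 5 rose and 17 fell out of 42 tested (median -0.12), against 35.9% rises and 27.4% falls over all genes. FOXM1, an activator of mitotic genes, fell from 57 ± 0.664 to 33.7 ± 1.23 FPKM, the cyclin gene CCNA2 fell from 94.8 ± 0.823 to 63.2 ± 1.72 FPKM, and the securin gene PTTG1 rose from 152 ± 10.6 to 213 ± 6.3 FPKM.

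NOTCH1 was lower after chidamide in the libraries labelled Molt-4. It was at 81.6, 75.1 and 75.1 FPKM in the untreated and 16.8, 18.1 and 16.6 FPKM in the treated libraries, 4.5-fold lower in the treated mean (log2 difference -2.11 ± 0.059, adjusted p = 1.43e-07). Of the T-lineage markers, CD3D had a log2 change of -0.35 ± 0.069, CD3E of -0.56 ± 0.04 and the transcription factor gene TCF7 of -0.26 ± 0.038, a call that TCF7 lost under quantile normalization. These markers were named after their values were seen. Of the 22 T-lineage markers tested 14 fell and 7 rose, LAT among the rises with a log2 change of 1.17 ± 0.049. Other receptor and ligand genes rose from low levels. NOTCH3 rose from 2.17 ± 0.543 to 5.8 ± 0.916 FPKM, the ligand gene DLL1 from 0.143 ± 0.0666 to 4.89 ± 0.148 FPKM, the coactivator gene MAML3 from 0.397 ± 0.0569 to 5.2 ± 0.095 FPKM and LFNG, which modifies NOTCH receptors, from 0.0867 ± 0.0379 to 1.92 ± 0.0866 FPKM. Across NOTCH receptor, ligand and machinery genes, 12 rose and 8 fell out of 32 tested and 36 listed (median 0.082), which is near the shares of all genes.

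Known NOTCH1 targets went both ways while their receptor gene fell. Of these targets, 17 rose and 7 fell out of 29 tested and 31 listed, with a median log2 change of 0.64. PTCRA, which encodes the alpha chain of the pre-T-cell receptor, was at 4.32, 3.93 and 4.49 FPKM in the untreated and 0.09, 0.13 and 0.39 FPKM in the treated libraries (log2 difference -2.13 ± 0.13, adjusted p = 4.02e-06). HES1, a repressor gene and classical target, was at 31.7, 31.2 and 30.8 FPKM in the untreated and 40, 45.1 and 42 FPKM in the treated libraries (log2 difference 0.43 ± 0.058, adjusted p = 0.000365), higher in each treated library. The same held for 38.4% of all genes tested. HES4 rose from 3.98 ± 0.725 to 13.1 ± 1.84 FPKM, HEY1 from 0.717 ± 0.385 to 4.31 ± 0.795 FPKM, HEYL from 0.583 ± 0.125 to 4.82 ± 0.41 FPKM and NRARP, a feedback inhibitor of NOTCH, from 4.4 ± 0.87 to 11.9 ± 0.955 FPKM. GATA3, a T-cell transcription factor gene on this list, was at 21.4, 20.6 and 28.8 FPKM in the untreated and 187, 155 and 163 FPKM in the treated libraries (log2 difference 2.80 ± 0.13, adjusted p = 1.10e-06). IL7R, the interleukin-7 receptor gene, rose from 0.163 ± 0.231 to 2.78 ± 0.842 FPKM. DTX1 was at 5.12 ± 0.47 FPKM without and 4.84 ± 0.531 FPKM with chidamide (adjusted p = 0.614), a difference within the spread of its libraries, and it was called lower under quantile normalization.

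MYC, the growth regulator that NOTCH1 activates in T-ALL, was at 235, 239.8 and 219 FPKM in the untreated and 196, 196 and 194 FPKM in the treated libraries (log2 difference -0.24 ± 0.043, adjusted p = 0.00153), so each treated library lay below each untreated one, with a treated mean 1.19-fold lower. Such a fall without overlap was seen in 29.8% of all genes tested. The MYC network, which holds MYC, its partners and its antagonists, had 5 rises and 4 falls among 15 tested of 17 listed, and its median of 0.0022 turned negative under median-of-ratios scaling and under quantile normalization. Its shares were near the 35.9% rises and 27.4% falls of all genes. The glucose-sensing partner gene MLXIPL rose from 1.03 ± 0.43 to 8.15 ± 0.308 FPKM, MYCL from 1.94 ± 0.22 to 6.92 ± 0.474 FPKM, and the antagonist gene MXI1 from 4.87 ± 0.506 to 10.4 ± 0.537 FPKM.

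Genes that MYC activates for growth and nucleolar function fell in the majority. Of these, 1 rose and 44 fell out of 49 tested and 53 listed (median -0.64). SRM, the spermidine synthase gene, was at 167, 162 and 162 FPKM in the untreated and 71.4, 78.7 and 77.9 FPKM in the treated libraries (log2 difference -1.10 ± 0.048, adjusted p = 9.29e-07). The importin gene IPO4 fell from 50.9 ± 5.04 to 18.8 ± 3.07 FPKM, the mitochondrial matrix protein gene C1QBP from 297 ± 7.85 to 137 ± 3.28 FPKM and the chaperonin gene HSPD1 from 571 ± 11.2 to 269.8 ± 7.43 FPKM. Their summed level was 10848.5 to 11360.3 FPKM untreated and 7619.9 to 7762 FPKM treated. Among cytosolic ribosomal protein genes, 6 rose and 36 fell out of 73 tested and 77 listed (median -0.12), with RPL21 at 1271 ± 49.8 FPKM without and 898 ± 16.5 FPKM with chidamide. The summed level of this list overlapped between the groups, at 174796 to 199918 FPKM untreated and 173617 to 176143 FPKM treated. Ribosomal protein genes have many pseudogenes, and reads shared with them make single members uncertain.

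Many translation, protein folding and energy genes were lower as well. Of all genes above 100 FPKM untreated, 56.7% fell. The shares of falls among ribosomal protein, proteasome and respiratory chain genes were near or below this one, so these falls cannot be called particular to the lists. Among amino acid response, synthesis and tRNA charging genes, 2 rose and 24 fell out of 32 tested and 34 listed (median -0.51). The folate-cycle gene MTHFD1L fell from 44.1 ± 1.01 to 14.6 ± 1.17 FPKM and the serine synthesis gene PSAT1 from 59.2 ± 2.71 to 27.2 ± 1.27 FPKM. CHAC1, a gene of the amino acid stress response, fell from 5.91 ± 1.41 to 2.22 ± 0.197 FPKM, a call that was lost in a fit of all 12 libraries. Among heat shock and chaperone genes, 5 rose and 19 fell out of 25 tested and 27 listed (median -0.34). HSPE1, partner of the HSPD1 chaperonin, fell from 514 ± 54 to 265 ± 8.7 FPKM, and HSPH1 from 93.6 ± 2.21 to 45.1 ± 2.1 FPKM. Among proteasome genes, 0 rose and 18 fell out of 31 tested (median -0.20); by limma 0 were higher also at an unadjusted p under 0.05. The gene PSMB5, the catalytic subunit targeted by proteasome inhibitors, fell from 119.8 ± 3.88 to 75 ± 3.75 FPKM. Among respiratory chain genes, 1 rose and 26 fell out of 42 tested and 43 listed (median -0.23), with NDUFA9 of complex I at 104 ± 7.05 FPKM without and 62.9 ± 4.08 FPKM with chidamide and CYC1 of complex III at 244 ± 3.57 FPKM without and 158 ± 4.06 FPKM with chidamide.

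Glycolysis genes were split, with 8 rises and 8 falls among 22 tested of 23 listed, and their median of 0.015 turned to -0.0098 under median-of-ratios scaling. Their share of rises was near the 35.9% of all genes, of which 27.4% fell. Members that rose were the pyruvate kinase gene PKM from 241 ± 7.95 to 494 ± 13.9 FPKM, the glucose transporter gene SLC2A3 from 26.2 ± 1.56 to 63.4 ± 0.722 FPKM, ALDOC from 32 ± 2.88 to 67.7 ± 6.17 FPKM and PFKFB4 from 2.33 ± 0.916 to 7.21 ± 0.527 FPKM. Among cholesterol synthesis genes, 3 rose and 15 fell out of 23 tested and 24 listed (median -0.36). LSS, the lanosterol synthase gene, fell from 83.1 ± 6.57 to 37.3 ± 1.4 FPKM, and the farnesyl diphosphate synthase gene FDPS from 254 ± 4.99 to 151 ± 4.91 FPKM. Polyamine genes went both ways. The synthesis genes SRM and ODC1 fell, ODC1 from 179 ± 3.87 to 90.1 ± 2.26 FPKM, while the degrading enzyme gene SAT1 rose from 20.7 ± 1.83 to 48.6 ± 0.909 FPKM and the antizyme gene OAZ2 from 33.8 ± 1.41 to 66.6 ± 4.53 FPKM. For the whole polyamine list, 6 rose and 5 fell out of 11 tested, with a median of 0.25 that turned to -0.078 under quantile normalization.

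**Figure D4:**
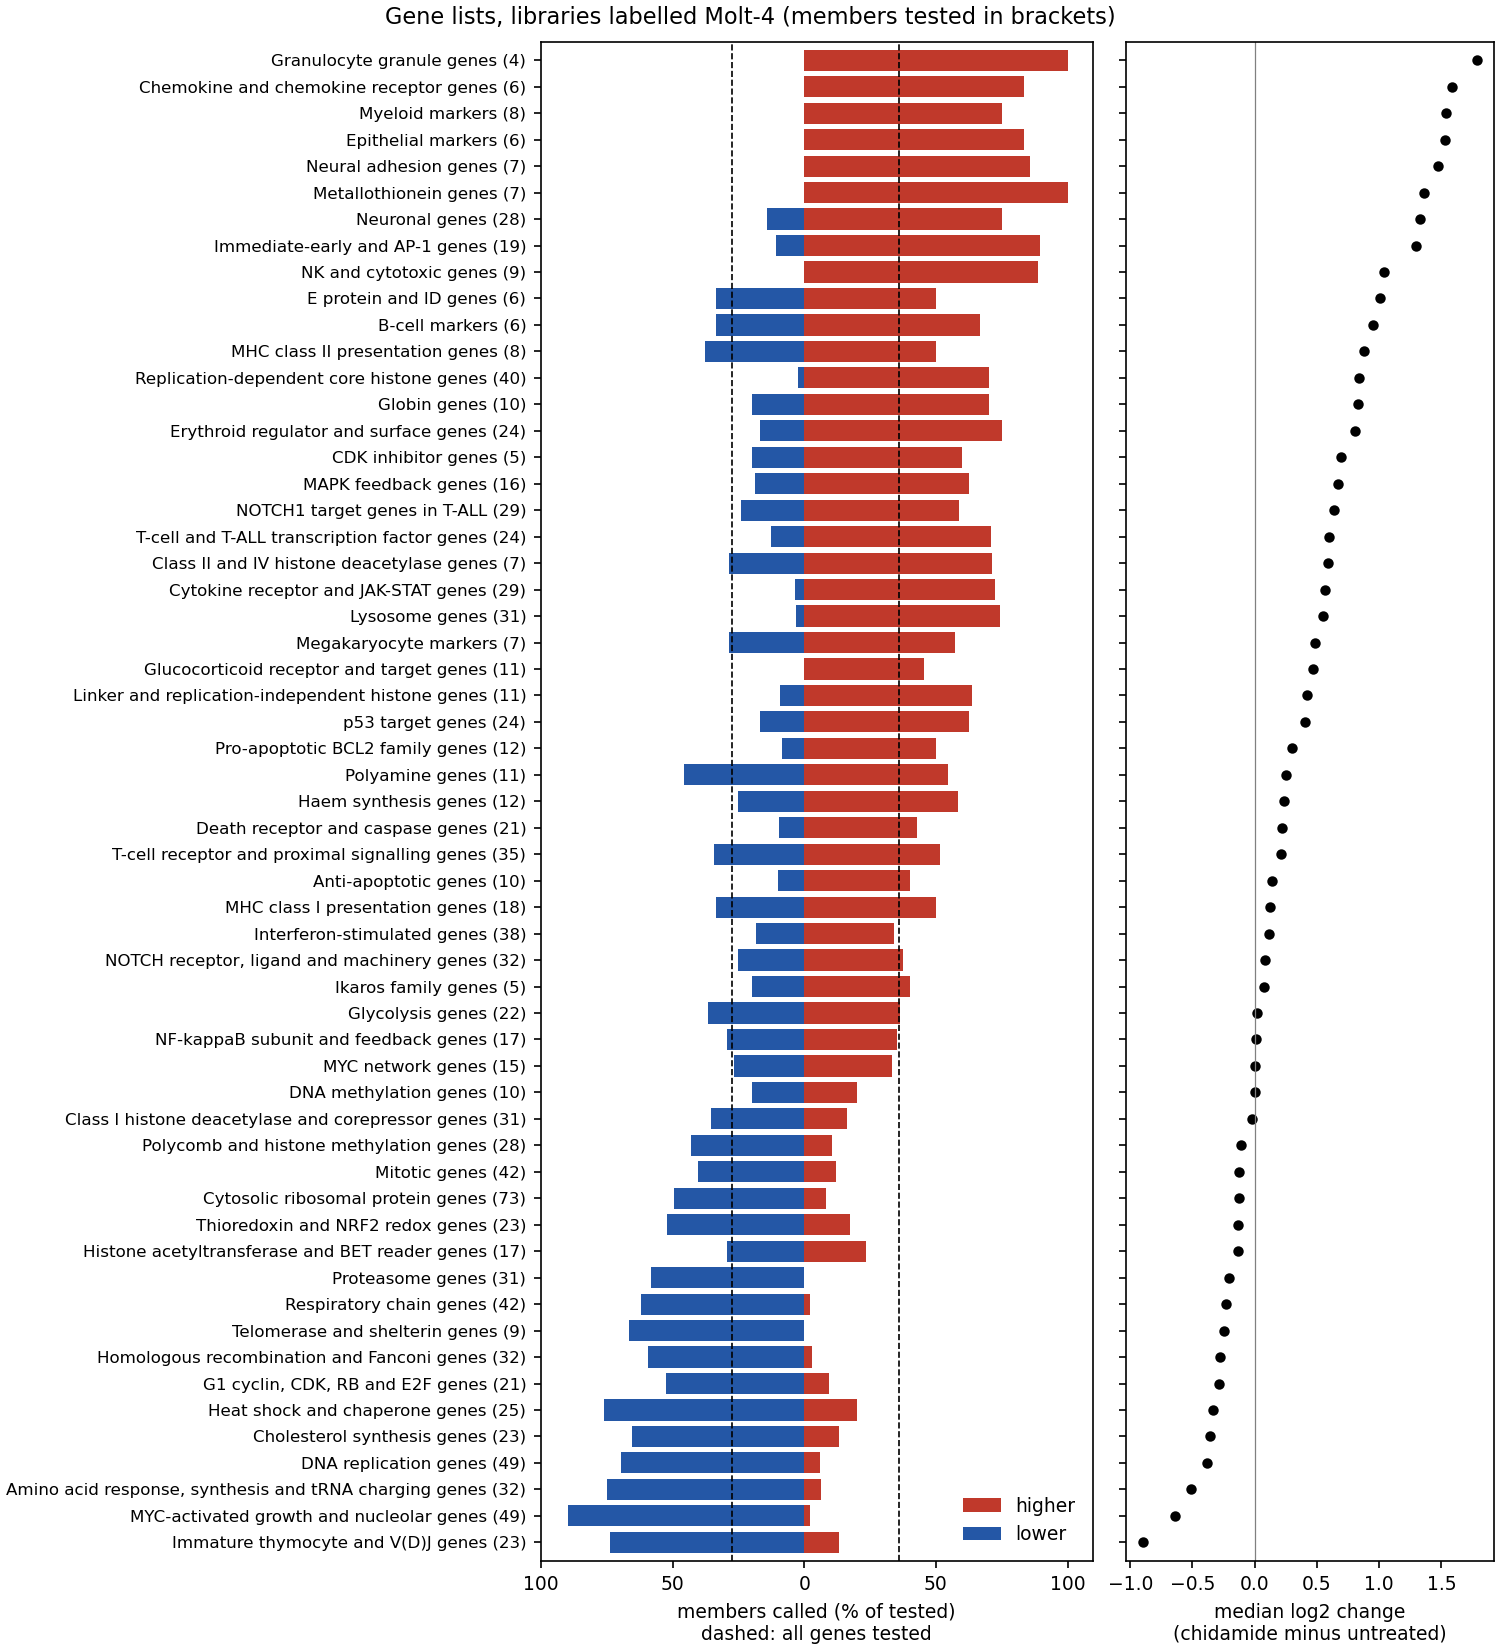
Left, for each gene list with at least 4 tested members, the percentage of tested members called higher (right of 0) and lower (left of 0), with dashed lines at the percentages for all genes tested (35.9 and 27.4). Right, the median log2 change of the tested members; lists run from granulocyte granule genes (median 1.79) down to immature thymocyte genes (-0.90).

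Most genes of immature thymocytes fell, while T-cell receptor and proximal signalling genes went both ways. Among immature thymocyte and V(D)J genes, 3 rose and 17 fell out of 23 tested (median -0.90). CD1E was at 143, 153 and 157 FPKM in the untreated and 16, 19.2 and 17 FPKM in the treated libraries (log2 difference -3.05 ± 0.072, adjusted p = 6.93e-08), with CD1B falling from 87.5 ± 3.15 to 7.25 ± 1.53 FPKM and CD1A from 39.3 ± 1.83 to 4.18 ± 0.192 FPKM. Among T-cell receptor and proximal signalling genes, 18 rose and 12 fell out of 35 tested and 40 listed (median 0.21). The kinase gene ZAP70, which couples the T-cell receptor to signalling, fell from 144 ± 3.72 to 57.7 ± 4.5 FPKM. Its partners in the same complex moved otherwise: the adaptor genes LCP2 and LAT rose from 60.4 ± 4.36 to 157 ± 0.252 FPKM and from 118 ± 6.14 to 267 ± 8.82 FPKM. The costimulatory receptor gene CD28 was at 0.49, 0.66 and 0.85 FPKM in the untreated and 13.6, 17 and 14.2 FPKM in the treated libraries (log2 difference 3.26 ± 0.12, adjusted p = 5.17e-07), and the activation marker gene CD69 rose from 9.25 ± 1.48 to 64.4 ± 2.71 FPKM, while CTLA4, another member, stayed at or under 0.2 FPKM. The T-lineage marker sum fell, as given above, while the summed level of the T-cell receptor list went from 1831 to 1919 FPKM untreated up to 2048 to 2057 FPKM treated.

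Among T-cell and T-ALL transcription factor genes, 17 rose and 3 fell out of 24 tested and 33 listed (median 0.59). RUNX3, which acts in cytotoxic T cells, rose from 0.853 ± 0.261 to 17.1 ± 0.81 FPKM. SPI1, the PU.1 gene of early progenitors and myeloid cells, rose from 1.26 ± 0.182 to 12.3 ± 1.15 FPKM. TAL1, an oncogene of T-ALL that is also a red-cell regulator, was at 25.2 ± 9.12 FPKM without and 22.6 ± 3.35 FPKM with chidamide (adjusted p = 0.685). LMO2, an oncogene of the same complex, was at 38.6 ± 1.15 FPKM without and 42.2 ± 2.14 FPKM with chidamide (adjusted p = 0.0806), and was called higher under quantile normalization and without treated replicate 1. Among Ikaros family genes, 2 rose and 1 fell out of 5 tested, near the 35.9% rises and 27.4% falls of all genes for so short a list. IKZF2 rose from 12.2 ± 0.551 to 47.4 ± 1.28 FPKM, IKZF1 fell from 74.3 ± 0.848 to 57.8 ± 0.925 FPKM, and the call of IKZF3 was lost under quantile normalization. The median of the family, 0.076, turned to -0.017 there.

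Most of the tested red-cell genes rose, some of them from high levels. Among globin genes, 7 rose and 2 fell out of 10 tested and 11 listed (median 0.83). The embryonic globin gene HBE1 was at 366, 379 and 397 FPKM in the untreated and 4369, 4454 and 4516 FPKM in the treated libraries, 11.7-fold higher in the treated mean (log2 difference 3.54 ± 0.04, adjusted p = 3.29e-09). The fetal gene HBG1 rose from 1675 ± 39.5 to 3777 ± 63.8 FPKM, and the adult genes HBB from 2.83 ± 0.874 to 26.7 ± 1.07 FPKM and HBD from 9.18 ± 0.711 to 24.7 ± 2.79 FPKM. The embryonic alpha-like gene HBZ went the other way and fell from 677 ± 16.8 to 555 ± 9.86 FPKM (log2 difference -0.29 ± 0.035, adjusted p = 0.000203). HBG1 and HBG2, like HBA1 and HBA2, are near-identical copies whose share of reads is uncertain. Among haem synthesis genes, 7 rose and 3 fell out of 12 tested and 13 listed (median 0.23). ALAS2, the erythroid enzyme of the first step of haem synthesis, was at 16.4, 11.4 and 12.1 FPKM in the untreated and 123, 119 and 111 FPKM in the treated libraries (log2 difference 3.07 ± 0.12, adjusted p = 6.36e-07). The mitochondrial iron importer gene SLC25A37 rose from 41 ± 2.27 to 125 ± 0.769 FPKM, while UROD, a later enzyme, fell from 226 ± 7.12 to 149.8 ± 0.52 FPKM.

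Among erythroid regulator and surface genes, 18 rose and 4 fell out of 24 tested and 26 listed (median 0.81). The carbonic anhydrase gene CA1 rose from 1.15 ± 0.202 to 41 ± 2.46 FPKM, the anion exchanger gene SLC4A1 from 1.22 ± 0.486 to 32.6 ± 0.86 FPKM, the blood group gene RHCE from 0.64 ± 0.271 to 11.9 ± 2.11 FPKM and the glycophorin gene GYPB from 9.68 ± 3.83 to 48.4 ± 10.5 FPKM. The regulator genes GATA1 and NFE2 rose from 86.9 ± 1.97 to 157 ± 5.82 FPKM and from 96 ± 2.9 to 167 ± 0.819 FPKM, while KLF1 was at 88.8 ± 4.74 FPKM without and 97.3 ± 0.953 FPKM with chidamide (log2 difference 0.13 ± 0.048, adjusted p = 0.0433, lost under 10 of 16 alternatives, among them without untreated replicate 2 or 3 or any treated replicate). AHSP, the chaperone of alpha globin, was at 66 ± 10.8 FPKM without and 53.9 ± 0.867 FPKM with chidamide (adjusted p = 0.0436, lost without treated replicate 1, 2 or 3). Among megakaryocyte markers, 4 rose and 2 fell out of 7 tested and 12 listed, and under quantile normalization their median went from 0.48 to -0.22. The platelet integrin genes ITGA2B and ITGB3 rose from 2.99 ± 0.837 to 24.3 ± 6.01 FPKM and from 0.25 ± 0.0954 to 5.66 ± 0.494 FPKM, while PF4 and GP9 were listed at 0 in all 6 libraries.

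A small set of granule and myeloid genes rose, most of them from low levels. The summed level of the 11 myeloid markers, LYZ among them, was 16.7 to 18.3 FPKM untreated and 117 to 121 FPKM treated, with 5 of 5 tested higher, and its part in the results below was not tested. Of 19 granulocyte granule genes only 4 were tested, and 4 of these rose. Besides PRG2, the lactoferrin gene LTF rose from 0, 0 and 0.02 to 3.21, 4.54 and 4.39 FPKM (single libraries), and the cathepsin G gene CTSG rose from 12.7 ± 1.26 to 31.7 ± 0.989 FPKM. Among myeloid markers, 6 rose and 0 fell out of 8 tested and 16 listed. ITGAM and ITGAX, integrin genes of myeloid cells, rose from 0.227 ± 0.0611 to 4.93 ± 0.965 FPKM and from 0.4 ± 0.255 to 4.1 ± 1.4 FPKM, and the macrophage marker gene CD68 from 5.58 ± 0.33 to 27.5 ± 2.32 FPKM. Among NK and cytotoxic genes, 8 rose and 0 fell out of 9 tested and 19 listed. The granzyme genes GZMM and GZMA rose from 0.43 ± 0.18 to 9.58 ± 0.792 FPKM and from 0.8 ± 0.217 to 9.86 ± 0.826 FPKM. Among B-cell markers, 4 rose and 2 fell out of 6 tested and 12 listed: IGLL1 and VPREB1 fell, as given above, while the antigen-receptor genes CD79A and CD79B rose from 2.85 ± 0.406 to 13.3 ± 1.31 FPKM and from 0.993 ± 0.398 to 4.25 ± 0.45 FPKM.

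Several MHC genes and most of the tested cytokine signalling genes rose. Among MHC class I presentation genes, 9 rose and 6 fell out of 18 tested and 19 listed (median 0.12). HLA-E rose from 58.9 ± 3.65 to 220.0 ± 2.92 FPKM, HLA-C followed from 19.3 ± 0.904 to 59.6 ± 1.98 FPKM, and HLA-F was at 0, 0 and 0.24 FPKM in the untreated and 3.87, 7.33 and 5.42 FPKM in the treated libraries. Of 16 MHC class II genes 8 were tested, of which 4 rose and 3 fell, and the median of 0.88 turned to -0.22 among the members with at least 5 FPKM in 3 libraries. HLA-DPB1 was listed at 0 in 3 untreated libraries and at 6.3, 7.04 and 7.71 FPKM in the treated ones. HLA-DMA, which loads peptides on class II molecules, was at 0.36, 0.4 and 0.65 FPKM in the untreated and 10.7, 10.7 and 13 FPKM in the treated libraries. Among cytokine receptor and JAK-STAT genes, 21 rose and 1 fell out of 29 tested and 31 listed (median 0.57). STAT5A, which transmits signals of the interleukin-2, interleukin-7 and erythropoietin receptors, rose from 249 ± 5.36 to 632 ± 20 FPKM. SOCS1, a feedback inhibitor of this pathway, rose from 4.38 ± 0.875 to 15.4 ± 0.799 FPKM, STAT4 from 2.02 ± 0.357 to 8.56 ± 1.19 FPKM and the interleukin-2 receptor beta gene IL2RB from 0.893 ± 0.185 to 6.02 ± 0.59 FPKM.

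Among chemokine and chemokine receptor genes, 5 rose and 0 fell out of 6 tested and 20 listed. CCR7, which guides T cells to lymph nodes, was at 1.76, 2.29 and 2.02 FPKM in the untreated and 42.5, 40.3 and 41.4 FPKM in the treated libraries (log2 difference 3.81 ± 0.088, adjusted p = 6.93e-08). S1PR1, which guides their exit, rose from 4.32 ± 0.699 to 38.5 ± 0.874 FPKM. Among interferon-stimulated genes, 13 rose and 7 fell out of 38 tested and 39 listed, near the shares of all genes, and under quantile normalization their median went from 0.12 to -0.14. RSAD2 rose from 3.59 ± 0.597 to 24.1 ± 0.573 FPKM and IFI6 from 21.9 ± 0.97 to 94.5 ± 1.13 FPKM. NF-kappaB subunit and feedback genes were split, with 6 rises and 5 falls among 17 tested of 20 listed and a median of 0.0075 that turned negative under median-of-ratios scaling and under quantile normalization. These shares too were near those of all genes. BIRC3, an inhibitor of apoptosis that NF-kappaB induces, rose from 4.19 ± 0.295 to 20 ± 0.522 FPKM, and the NF-kappaB inhibitor gene NFKBIA fell from 15.8 ± 1.1 to 9.26 ± 0.557 FPKM.

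Immediate-early genes, which respond early to growth and stress signals, were higher at the time of harvest. Of these, 17 rose and 2 fell out of 19 tested and 27 listed (median 1.30). JUN, a subunit of the transcription factor AP-1, was at 3.27, 2.6 and 2.94 FPKM in the untreated and 29.2, 31.4 and 30.9 FPKM in the treated libraries (adjusted p = 1.69e-07). IER3 was at 8.74, 9.81 and 9.89 FPKM in the untreated and 122, 120.1 and 122 FPKM in the treated libraries (log2 difference 3.55 ± 0.059, adjusted p = 2.33e-08). ATF3 rose from 6.94 ± 0.157 to 30.2 ± 4.86 FPKM and KLF2 from 0.807 ± 0.336 to 8.24 ± 1.58 FPKM. Inhibitors that these signals induce rose too: among MAPK feedback genes, 10 rose and 3 fell out of 16 tested (median 0.67). SPRY1, which restrains receptor tyrosine kinase signalling, was at 12.9, 12.8 and 11.9 FPKM in the untreated and 225, 228 and 225 FPKM in the treated libraries (log2 difference 4.07 ± 0.047, adjusted p = 3.29e-09). The phosphatase genes DUSP6, DUSP10 and DUSP4 rose from 2.05 ± 0.49 to 18.9 ± 1.11 FPKM, from 1.28 ± 0.11 to 8.11 ± 0.702 FPKM and from 0.12 ± 0.0173 to 3.1 ± 0.18 FPKM.

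Apoptosis genes went both ways, against 35.9% rises and 27.4% falls over all genes. Among pro-apoptotic BCL2 family genes, 6 rose and 1 fell out of 12 tested and 15 listed (median 0.30). BMF, which neutralises anti-apoptotic BCL2 proteins, rose from 2.12 ± 0.774 to 10.6 ± 0.787 FPKM, while BID fell from 98.5 ± 5.14 to 68.5 ± 2.15 FPKM. BOK was called higher, from 1.17 ± 0.202 to 2.43 ± 0.159 FPKM, and its log2 change of 0.66 was -0.0044 under quantile normalization. Among death receptor and caspase genes, 9 rose and 2 fell out of 21 tested and 24 listed. The TRAIL receptor gene TNFRSF10B was at 3.09, 3.72 and 4.24 FPKM in the untreated and 15.9, 17.1 and 14.9 FPKM in the treated libraries (log2 difference 1.86 ± 0.11, adjusted p = 4.45e-06). FAS rose from 3.16 ± 0.615 to 11 ± 0.37 FPKM, and TNFSF10, the TRAIL gene, from 2.47 ± 0.673 to 8.79 ± 0.513 FPKM. Among anti-apoptotic genes, 4 rose and 1 fell out of 10 tested and 12 listed, a share of rises near that of all genes. BCL2L1, which encodes BCL-XL, rose from 79.4 ± 2.74 to 112 ± 3.65 FPKM and BIRC2 from 16 ± 1.71 to 31.4 ± 1.57 FPKM, and the call of CFLAR was lost without treated replicate 1 or 3. Among p53 target genes, 15 rose and 4 fell out of 24 tested and 26 listed (median 0.40), with the antiproliferative gene BTG2 rising from 5.59 ± 0.119 to 43.2 ± 2.33 FPKM and TP53INP1 from 0.52 ± 0.09 to 2.49 ± 0.158 FPKM.

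The transcripts of the drug's targets differed by small amounts. HDAC1 was at 224, 229.5 and 252 FPKM in the untreated and 268, 259 and 271 FPKM in the treated libraries (log2 difference 0.18 ± 0.051, adjusted p = 0.0164), a call that was lost without untreated replicate 1 or 2 or treated replicate 1 or 3. HDAC2 was at 173 ± 10.4 FPKM without and 161 ± 5.13 FPKM with chidamide (adjusted p = 0.138) and was called lower without untreated replicate 1. HDAC3 was at 77.6 ± 3.76 FPKM without and 87.3 ± 2.38 FPKM with chidamide (adjusted p = 0.0178, lost without untreated replicate 2 or treated replicate 3). HDAC10 was at 34.4 ± 4.26 FPKM without and 26.4 ± 2.87 FPKM with chidamide (adjusted p = 0.0189, lost without untreated replicate 1 or 3 or treated replicate 1). Class II and IV deacetylase genes were mostly higher: HDAC5 rose from 9.13 ± 0.625 to 39.1 ± 0.653 FPKM, HDAC9 from 0.133 ± 0.123 to 2.67 ± 0.335 FPKM and HDAC11 from 3.94 ± 0.435 to 9.89 ± 0.498 FPKM. Of this class, 5 rose and 2 fell out of 7 tested (median 0.59). Among class I histone deacetylase and corepressor genes, 5 rose and 11 fell out of 31 tested, against 35.9% rises and 27.4% falls over all genes. The falls included the NuRD complex genes MBD3 from 107 ± 7.76 to 64.3 ± 1.98 FPKM and MTA1 from 133 ± 1.5 to 89.3 ± 2.95 FPKM. The neural corepressor gene RCOR2 rose from 2.23 ± 0.463 to 12.3 ± 0.392 FPKM.

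Most of the core histone genes tested rose. Among replication-dependent core histone genes, 28 rose and 1 fell out of 40 tested and 54 listed (median 0.84), while DNA replication genes fell. HIST1H2AI was at 16.4, 17.5 and 15.7 FPKM in the untreated and 109, 112 and 101 FPKM in the treated libraries (log2 difference 2.63 ± 0.062, adjusted p = 6.93e-08). HIST1H4H rose from 26.8 ± 7.91 to 116 ± 4.35 FPKM, HIST1H3H from 13.4 ± 0.785 to 53.4 ± 1.88 FPKM and HIST1H2BG from 5.55 ± 0.735 to 28 ± 0.969 FPKM. Core histone genes are near-identical copies, and single members are uncertain. H1F0, a linker histone gene of arrested and differentiating cells, was at 5.88, 4.8 and 5.19 FPKM in the untreated and 30.7, 30.1 and 29.8 FPKM in the treated libraries (log2 difference 2.31 ± 0.083, adjusted p = 3.96e-07), and the linker histone gene HIST1H1C rose from 254 ± 6.74 to 654 ± 22.9 FPKM. Among histone acetyltransferase and BET reader genes, 4 rose and 5 fell out of 17 tested and 19 listed. Over all genes 35.9% rose and 27.4% fell, so the falls were near that share and the rises below it. KAT2A fell from 61.1 ± 3.07 to 34.9 ± 2.39 FPKM and BRD3 from 32 ± 2.38 to 19.5 ± 1.26 FPKM. KAT2B rose from 5.51 ± 0.544 to 7.76 ± 0.871 FPKM, a call lost under quantile normalization. Among Polycomb and histone methylation genes, 3 rose and 12 fell out of 28 tested and 30 listed (median -0.11), with NSD2 falling from 131 ± 3.68 to 87.8 ± 3.5 FPKM and the demethylase gene KDM5B rising from 10.9 ± 0.445 to 17.1 ± 0.361 FPKM. UHRF1, which recruits the maintenance DNA methyltransferase, fell from 249.7 ± 2.68 to 134 ± 3.81 FPKM, and DNMT3B rose from 17.9 ± 1.1 to 30.2 ± 1.26 FPKM, while DNA methylation genes as a list had 2 rises and 2 falls among 10 tested, below the shares of all genes.

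Genes best known from other tissues rose as well. Of 52 neuronal genes 28 were tested, of which 21 rose and 4 fell (median 1.33). The synaptic vesicle gene SYP was at 3.19, 2.65 and 3.2 FPKM in the untreated and 36.3, 38.2 and 39.8 FPKM in the treated libraries (log2 difference 3.29 ± 0.086, adjusted p = 1.03e-07). SCG3 of secretory granules rose from 3.63 ± 0.221 to 42.8 ± 0.976 FPKM, the synaptic adhesion gene NRXN2 from 1.34 ± 0.468 to 17.8 ± 5.34 FPKM and the tubulin gene TUBB2B from 3.68 ± 0.679 to 35.1 ± 0.876 FPKM. The neural adhesion gene L1CAM rose from 0.253 ± 0.123 to 14.6 ± 0.28 FPKM, and NCAM1 was listed at 0 in 3 untreated libraries and at 5.25, 4.23 and 5.25 FPKM in the treated ones. The epithelial cadherin gene CDH1 rose from 1.43 ± 0.839 to 22.3 ± 0.486 FPKM, and the keratin genes KRT8 and KRT19 rose from 28.1 ± 3.32 to 105 ± 1.05 FPKM and from 27 ± 1.46 to 69.2 ± 0.89 FPKM. The sum of 9 epithelial markers went from 109 to 114 FPKM up to 278 to 285 FPKM, and KRT5, KRT14, CLDN3 and CLDN4 stayed under an FPKM of 1.

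Among metallothionein genes, which encode metal-binding proteins, 7 rose and 0 fell out of 7 tested and 11 listed (median 1.36). MT1G rose from 8.26 ± 2.81 to 22.3 ± 4.44 FPKM. MT1F was listed at 0 in the untreated libraries and at 4.8, 8.2 and 6.22 FPKM in the treated ones. Among thioredoxin and NRF2 redox genes, 4 rose and 12 fell out of 23 tested and 25 listed. TXNIP, the thioredoxin inhibitor gene, rose from 17.2 ± 0.389 to 58.8 ± 1.31 FPKM, whereas NQO1, SLC7A11 and PRDX2 fell from 43.7 ± 0.648 to 17.5 ± 0.784 FPKM, from 3.09 ± 0.225 to 1.01 ± 0.04 FPKM and from 517 ± 8.69 to 269 ± 10.8 FPKM. Among lysosome genes, 23 rose and 1 fell out of 31 tested and 33 listed (median 0.55). The protease genes CTSB and CTSL rose from 41 ± 1.59 to 217 ± 4.52 FPKM and from 17.2 ± 0.346 to 73.3 ± 1.17 FPKM, and TFEB, the regulator of lysosome genes, from 1.8 ± 0.119 to 8.26 ± 0.4 FPKM. Among glucocorticoid receptor and target genes, 5 rose and 0 fell out of 11 tested and 12 listed, with TSC22D3, known as GILZ, rising from 0.67 ± 0.282 to 4.32 ± 1.25 FPKM and the kinase gene SGK1 from 8.41 ± 0.7 to 40.6 ± 3.96 FPKM.

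The same genes were set beside the Jurkat response in a fit of all 12 libraries. In Jurkat 3878 of the 13060 genes rose (29.7%) and 3424 fell (26.2%). Called in both lines were 5540 genes, of which 5135 had the same direction, which is 62% of the Molt-4 calls and 70.3% of the Jurkat calls. In opposite directions, 259 genes were higher in Molt-4 and lower in Jurkat, and 146 the reverse. Across genes the log2 changes correlated with r = 0.658 and rho = 0.674, as a description, since genes are not independent and all libraries come from 1 study. The response difference, the Molt-4 log2 change minus that of Jurkat, was tested against a size of 1 with limma's treat. By that test 261 genes had a higher response in Molt-4 (2%) and 33 a lower one (0.253%). Only genes that passed the filter in Molt-4 were tested, against 13840 genes by the same rule over all 12 libraries. A gene that rose from near 0 in Molt-4 could enter, while one expressed only in Jurkat could not. These counts therefore cannot be weighed against each other.

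Several of the genes given above changed in the same direction in both lines. The log2 change of RAG1 was -4.96 ± 0.073 in Molt-4 and -2.73 ± 0.069 in Jurkat, that of DNTT -4.78 ± 0.094 and -4.64 ± 0.18, and that of CDKN1A 3.67 ± 0.11 and 4.51 ± 0.11. The difference of the responses was -2.23 ± 0.098 for RAG1, which was called, and -0.14 ± 0.25 for DNTT and -0.84 ± 0.16 for CDKN1A, which were not. Genes that MYC activates for growth had a Jurkat median of -0.75 (0 rose and 43 fell), and DNA replication genes -0.32 (1 rose and 37 fell).

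NOTCH1 differed between the lines. In Jurkat it was at 20.8 ± 2.72 FPKM without and 14 ± 0.595 FPKM with chidamide (log2 change -0.53 ± 0.088), and the response difference was -1.58 ± 0.12 (adjusted p = 0.0149). Quantile normalization removed that call, with an adjusted p of 0.0603 at the top of a range from 1.89e-06 over 20 alternatives. HES4 also differed: it was at 113 ± 4.92 FPKM without and 83.3 ± 5.98 FPKM with chidamide in Jurkat, and the response difference was 1.93 ± 0.16 (adjusted p = 0.00305, and 0.0831 under quantile normalization). Core histone genes had 8 rises and 6 falls in Jurkat, and 6 of them had a called response difference toward Molt-4. Of the erythroid regulator and surface genes 7 had a called difference toward Molt-4 and 1 toward Jurkat.

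The largest differences toward Molt-4 were PRG2, CPXM1, PRSS2, LYZ and CA1, whose log2 changes in Jurkat lay between -0.15 and 0.038, and the uncertain copy CXorf49B. PRG2 was at 0.26, 0.17 and 0 FPKM in the untreated and 0.19, 0 and 0.08 FPKM in the treated Jurkat libraries. The largest differences toward Jurkat were genes that rose there. FSCN1, an actin-bundling protein gene, was at 68.3 ± 2.35 FPKM without and 64.3 ± 1.35 FPKM with chidamide in Molt-4 and at 1.52 ± 0.262 FPKM without and 26.6 ± 0.793 FPKM with chidamide in Jurkat (response difference -3.54 ± 0.11). The nuclear lamin gene LMNA had a log2 change of 0.48 ± 0.07 in Molt-4 and 3.73 ± 0.11 in Jurkat. TMEM158 fell in Molt-4 from 15.1 ± 1.92 to 7.85 ± 0.514 FPKM, with a log2 change of 2.49 ± 0.12 in Jurkat. NKAIN4 was the exception, since it fell in Molt-4 from 14 ± 1.27 to 1.02 ± 0.267 FPKM with a log2 change of 0 ± 0.11 in Jurkat. A gene that is not expressed in Jurkat would also give a change of 0 there. The remaining pair of this set, TMSB15A and ADD2, had Molt-4 log2 changes of 0.24 ± 0.064 and 0.32 ± 0.085, calls that were lost in the fit of all 12 libraries, and Jurkat changes of 3.39 ± 0.13 and 3.11 ± 0.21.

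**Figure D5:**
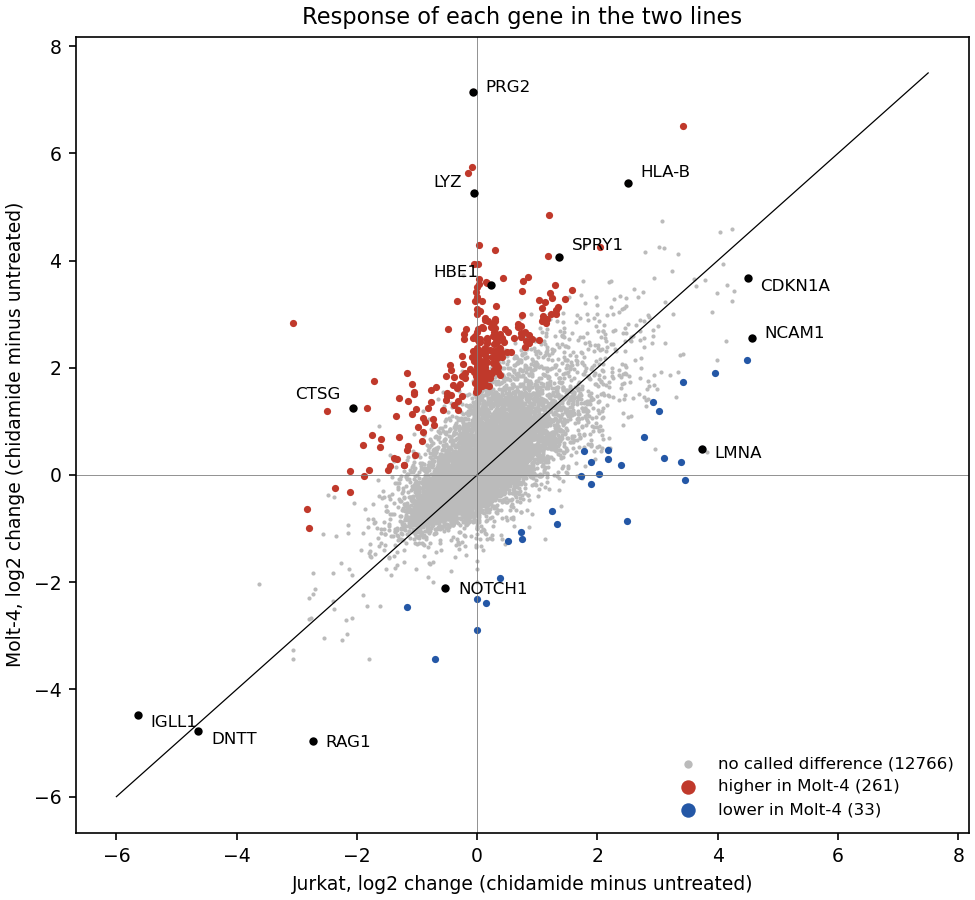
Log2 change of each of 13060 genes in Jurkat (x axis) and in the libraries labelled Molt-4 (y axis), differences of log2(FPKM + 1); the diagonal marks equal change and colours mark genes whose response difference was called. Called genes higher in Molt-4 (261) cluster near a Jurkat change of 0, and RAG1, DNTT and IGLL1 lie low in both lines. Genes passed the filter by their Molt-4 levels only, so genes expressed only in Jurkat are not shown.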

How the data were processed

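RNA-seq libraries were compared in 2 groups of 3 libraries labelled Molt-4, with 6 Jurkat libraries beside them. The deposited values are FPKM per gene symbol, made by the authors and rounded to 2 decimals. Per the submitters' processing notes, STAR, HTSeq, DESeq2 and hg19 were used; versions, their order and how FPKM was obtained are not given in the sources used here. FPKM holds no read counts. At best 52% of low values lay within 0.15 of a whole multiple of 1 read, so whole reads were not recovered, the sequencing depth is unknown and counting error cannot be stated.

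The genes that reached 1 FPKM in 3 or more of the 6 libraries were transformed as log2(FPKM + 1). A mean per group was fitted with limma 3.58.1 in R 4.3.3 (lmFit, eBayes with trend, 4 residual degrees of freedom). Two-sided p-values were corrected for 13060 genes by Benjamini-Hochberg adjustment, with calls at an adjusted p under 0.05. Jurkat was left out of this fit because genes near 0 there would lower the shared spread. Response differences came from a fit of all 12 libraries (8 residual degrees of freedom), tested with limma's treat against a log2 difference of 1. A test of 3 against 3 by exact permutation cannot go below p = 0.1, so single genes rest on limma alone.

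The genes and the 59 lists were chosen with earlier results of these data known. Named genes were 15 genes of the NOTCH1, MYC, CDKN1A and deacetylase set, the 10 largest rises and falls with a mean of at least 5 FPKM and no overlap, the 5 largest changes each way in FPKM, up to 4 called members per list, and the 6 highest and lowest response differences. CD3D, CD3E, TCF7, GATA1, KLF1, NFE2, HBZ, AHSP, LAT, TAL1, LMO2, STAT5A, PRF1, CD33, KRT18 and CTLA4 were named after their values were seen. Lists are described by counts of called members and medians beside all genes tested; members outside the filter were not tested, and a member that passed only through its treated level had to be higher there. The lists of at least 4 tested members with 0 falls had 0 falls also at an unadjusted p under 0.05 in limma, and those with 0 rises had 0 rises. On simulated Molt-4 libraries with 200 changed genes the fit called 40 of 40 genes simulated with a log2 change of -2, 37 of 40 at -1, 34 of 40 at 1, 28 of 40 at -0.5 and 26 of 40 at 0.5, and called 15 of 12860 unchanged genes. Genes with low untreated levels were not among the changed ones, and the noise was normal and independent. These rates therefore do not describe low genes, nor data in which 63.4% of genes were called. Alternatives were another pseudocount, other filters, 3 scalings, all 12 libraries in 1 fit, robust empirical Bayes, the replicate block, a 2-fold requirement and each library left out. Promoter sequences are RefSeq's on GRCh38.p14, from which no coordinate was carried to hg19.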

Additional observations from a re-analysis of the deposited data

Results flagged for a closer look

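These results stood out because the response to chidamide differed between the libraries labelled Molt-4 and Jurkat by the test of the difference itself (limma's treat against a log2 difference of 1, adjusted p under 0.05). In all 261 genes had a higher response in Molt-4 and 33 a lower one. The filter used Molt-4 levels only, so genes expressed only in Jurkat were not tested and these counts are not a balanced comparison. The values below are Molt-4 minus Jurkat differences of log2 change.

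The higher responses are given by what the genes are known for, not in order of size. Genes of granules, myeloid cells and the secretory path were PRG2 7.21, CPXM1 5.85, PRSS2 5.78, LYZ 5.31, CTSG 3.33, SPI1 2.63 and the lysosomal protease genes CTSL 2.03 and CTSB 2.00. CTSL was at 0 FPKM in each Jurkat library, so it had no Jurkat response to compare. Each Jurkat library was also under 1 FPKM for PRG2, LYZ, CDH1, DUSP4 and DUSP6. Red-cell genes were CA1 4.25, SLC4A1 3.93, HBE1 3.32, ALAS2 3.01, SLC25A37 2.35 and RHCE 2.23. In Jurkat SLC25A37 fell from 31.9 ± 0.806 to 18.3 ± 0.618 FPKM, while the other 5 had group means under 1 FPKM there. Genes of antigen presentation and lymphocytes were THY1 3.65, CD79A 3.07, HLA-B 2.94, CD28 2.23, RSAD2 2.14, RUNX3 2.06 and HLA-DMA 1.78. The signalling inhibitor genes SPRY1, DUSP6 and DUSP4 differed by 2.90 (DUSP6), 2.71 (SPRY1) and 1.49 (DUSP4). The neuronal genes were SCG3 3.28, TUBB2B 1.86 and SYP 1.83, and the adhesion genes CDH1 3.33 and PECAM1 1.55. Core histone genes differed by 2.85 (HIST1H2AI) and 2.16 (HIST1H2BG). Both were low in Jurkat, where HIST1H2AI had means of 1.29 FPKM without and 0.967 FPKM with chidamide, and HIST1H2BG 0.0533 and 0.0467 FPKM. The remaining higher responses were MIR6843 3.09, MT1A 2.21, TERT 2.19, TXNIP 1.70, and the NOTCH1 target genes HES4 1.93 and TSPAN15 1.86. A positive difference can also hold a fall in Jurkat. TERT fell in Molt-4 and fell more in Jurkat. In Jurkat CTSG fell from 284 ± 122 to 63.2 ± 1.29 FPKM, with 1 untreated library at 425 FPKM, and CD79A from 27.4 ± 2.55 to 11.6 ± 0.431 FPKM. CXorf49B had a difference of 5.89, but its reads cannot be separated from its copy CXorf49.

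Lower responses in Molt-4 included NOTCH1 with -1.58 and the thymocyte genes RAG1 with -2.23 and VPREB1 with -2.72. VPREB1 was at 1.91, 0.84 and 0.73 FPKM in untreated Jurkat, which left little room for a fall there. The others were NCAM1 with -2.01, SGK1 with -2.34, ADD2 with -2.80, NKAIN4 with -2.89, TMSB15A with -3.15, LMNA with -3.25, TMEM158 with -3.35 and FSCN1 with -3.54.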

How the results depend on the processing

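With a change of at least 2-fold required as well, 1687 genes rose and 183 fell, against 4695 and 3584 without it. A plain moderated test of the response difference, without the size of 1, gave 2669 genes higher and 1494 lower in Molt-4, and a pseudocount of 0.1 gave 92 lower ones against 33. The other counts stayed within 1.5 times of the main ones, including 3551 rises and 4958 falls under quantile normalization, and 3288 and 3396 with an FPKM of at least 5 in 3 libraries. Leaving out each library in turn gave 4299 to 4603 rises and 3181 to 3392 falls, and for the response difference 228 to 259 genes higher and 29 to 40 lower. Without untreated replicate 3, whose 7SL share stood apart, 4603 genes rose and 3306 fell. The replicate number does not pair the libraries: deviations of same-numbered libraries correlated at -0.0038 to 0.048. With the replicate block 4624 genes rose and 3454 fell, and the response difference gave 228 genes higher and 29 lower.

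Among single genes, the log2 change of BOK reversed to -0.0044 under quantile normalization, and the cause was not tested. Of the values of the 267 named genes under the alternatives, 4089 kept direction and call, 142 (of 99 genes) kept direction and lost the call, the 2-fold requirement included, and 4 gained a call. Response differences of DUSP4, PECAM1 and TSPAN15 lost their call under 11 of 19, 12 of 20 and 8 of 20 alternatives. With a pseudocount of 0.1 those of HBE1, NCAM1, RHCE, TUBB2B, TXNIP and VPREB1 were lost, under quantile normalization those of NOTCH1, HES4 and TERT, and with the replicate block that of RSAD2. Calls of AZU1, HSPA1L, IKZF3, KAT2B and THBS1 were lost under quantile normalization, and that of HIST1H1E without single libraries. The unknown depth limits what can be said of genes near an FPKM of 1, and 2 decimals limit those near 0.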

Other observations

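Telomere genes were not described above. Among telomerase and shelterin genes, 0 rose and 6 fell out of 9 tested and 11 listed (median -0.25). TERT, the catalytic subunit gene of telomerase, fell from 3.58 ± 0.914 to 1.91 ± 0.17 FPKM, the accessory protein gene GAR1 from 116 ± 10.7 to 67.6 ± 2.8 FPKM and the shelterin gene TERF2 from 37.7 ± 5.77 to 26.8 ± 3.41 FPKM. The 7SL RNA genes, part of the signal recognition particle, were not called: RN7SL2 was at 16906, 22460.3 and 61105 FPKM in the untreated and 11423, 28155 and 21946 FPKM in the treated libraries. The list's median of -0.44 became 0.11 without untreated replicate 3, which held the highest values.

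TMSB10, an actin-binding thymosin gene, was among the 5 largest rises in FPKM, at 1111, 1229.7 and 1352 FPKM in the untreated and 2858, 2921 and 2956 FPKM in the treated libraries (log2 difference 1.25 ± 0.067, adjusted p = 2.48e-06). Among fibroblast and endothelial markers, 3 rose and 0 fell out of 3 tested and 11 listed, with the growth factor receptor gene PDGFRB rising from 0.2, 0 and 0.1 to 3.38, 3.79 and 2.53 FPKM (single libraries) and PECAM1 from 19.1 ± 2.91 to 30.1 ± 1.27 FPKM, while COL1A2, DCN, CDH5 and VWF stayed under an FPKM of 1.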
